A study of Mus musculus with 6 samples.

Results

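Annexins are calcium-dependent phospholipid-binding proteins, and the array read the annexin gene Anxa4 with 3 probe sets that did not move together between the strains. The members are the annexin genes Anxa1, Anxa2, Anxa3, Anxa4, Anxa5, Anxa6, Anxa7, Anxa11 and Anxa13, taken by family name and kept where the platform annotation pairs a probe set with that gene alone. This left 18 probe sets of 8 genes, among 45037 probe sets tested and 18193 genes that could be named from a probe set. The 1 probe set naming Anxa11 is also paired with other genes, so Anxa11 was not analysed here. Anxa4 itself was chosen by the measured strain difference of its probe sets, so its values in that comparison are a description and carry no test. The other 7 genes entered by name, and their values come from the same comparison.

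Liver RNA was hybridised to Affymetrix arrays from 3 C57BL/6J mice and 3 B6.C3H-6T mice, 1 mouse per array, with nothing pooled. B6.C3H-6T is congenic: it has the C57BL/6J genome except for a segment of C3H origin on chromosome 6, and the series describes it as having low serum IGF-1. Mice of both strains were chow-fed females of 8 weeks, with no treatment named. The sources used here do not state the limits of the C3H segment. Values are log2 expression, so a difference of 1 is a doubling, and every difference below is B6.C3H-6T minus C57BL/6J. Array medians lay between 6.07 and 6.11.

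An annexin has a conserved core of repeats that binds acidic membrane lipids when calcium rises, and an N-terminal tail that differs between family members and docks partners such as the S100 proteins. Annexins take part in membrane organisation, vesicle traffic and membrane repair. In liver, annexin A4 is best known from the epithelium of bile ducts, annexin A6 is abundant in hepatocytes, and annexin A1 is tied to leukocytes and the resolution of inflammation. Anxa4 is the only one of these genes on chromosome 6, since Anxa1 lies on chromosome 19, Anxa2 on 9, Anxa3 on 5, Anxa5 on 3, Anxa6 on 11, Anxa7 and Anxa11 on 14 and Anxa13 on 15.

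RefSeq's promoter table (assembly GRCm38.p6) gives 2 start windows for Anxa4. They are shown because alternative starts are what the reference gives on how transcripts of Anxa4 can differ. Each window runs from 250 bases before to 50 bases after a start, on the minus strand, 5′ to 3′, with CG dinucleotides in capitals. The upstream window is chr6:86793535-86793834 and the downstream one is chr6:86775065-86775364.
Anxa4 upstream start: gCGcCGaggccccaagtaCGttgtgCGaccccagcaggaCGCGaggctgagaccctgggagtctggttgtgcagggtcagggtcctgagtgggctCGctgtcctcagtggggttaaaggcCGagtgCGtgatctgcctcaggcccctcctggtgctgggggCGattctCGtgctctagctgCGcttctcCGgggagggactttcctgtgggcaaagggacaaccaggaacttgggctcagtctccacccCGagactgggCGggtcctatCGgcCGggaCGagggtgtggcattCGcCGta
Anxa4 downstream start: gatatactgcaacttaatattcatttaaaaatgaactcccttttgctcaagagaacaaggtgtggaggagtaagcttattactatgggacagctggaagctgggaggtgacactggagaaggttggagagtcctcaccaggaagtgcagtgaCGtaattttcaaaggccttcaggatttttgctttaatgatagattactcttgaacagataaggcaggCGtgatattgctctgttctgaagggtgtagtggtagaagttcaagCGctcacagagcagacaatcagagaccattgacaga

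The 2 starts lie 18470 bases apart and differ in base composition. The upstream window holds 20 CG dinucleotides and 65.3% G and C. Of all 32851 windows in the table, 26.5% hold at least as many CG dinucleotides, and the median is 7. The downstream window holds 3 CG dinucleotides and 43.0% G and C, and 76.7% of windows hold at least 3. The GC box GGGCGG, searched on both strands, occurs once in the upstream window and not in the downstream one, and 35.7% of all windows hold it. Neither window holds TATAAA (13.6% of all windows) or CCAAT (37.4%). Windows were listed for 6 of the 9 annexin genes. The probe sequences were not used here, so no probe set was placed on a transcript or a start.

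The probe set 1421223_a_at, designed on the RefSeq transcript NM_013471 of Anxa4, was lower in B6.C3H-6T. Its log2 values were 9.74, 9.64 and 9.66 in C57BL/6J replicates 1 to 3, and 9.12, 9.01 and 9.05 in B6.C3H-6T replicates 1 to 3. All 3 congenic mice lay below all 3 C57BL/6J mice, and the distance between the strains was far wider than the spread within either. The mean was 9.68 ± 0.06 (SD, n = 3) in C57BL/6J mice and 9.06 ± 0.05 (n = 3) in B6.C3H-6T. The difference was -0.62 ± 0.06 (SE), a 1.54-fold lower signal.

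The probe set 1424176_a_at was higher in B6.C3H-6T. It read 8.72, 8.65 and 8.56 in the C57BL/6J mice and 8.93, 8.83 and 8.86 in the B6.C3H-6T mice. The strains did not overlap here either, but in the opposite order: every congenic mouse was above every C57BL/6J mouse. The means were 8.64 ± 0.08 and 8.87 ± 0.05 (SD, n = 3 each), a difference of 0.23 ± 0.07, or 1.17-fold.

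The probe set 1457658_x_at overlapped between the strains. It read 7.38, 7.42 and 7.24 in the C57BL/6J mice and 7.59, 7.57 and 7.36 in the B6.C3H-6T mice. Congenic replicates 1 and 2 were above all C57BL/6J mice, and congenic replicate 3 fell among them. The means were 7.35 ± 0.10 and 7.50 ± 0.13 (SD, n = 3 each), a difference of 0.16 ± 0.08. In Affymetrix naming the ending _x_at marks a probe set with probes that may also match other transcripts, and _a_at marks one that matches alternative transcripts of 1 gene. The 3 Anxa4 means were all above the median of the probe sets in the table, 6.10.

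**Figure D1:**
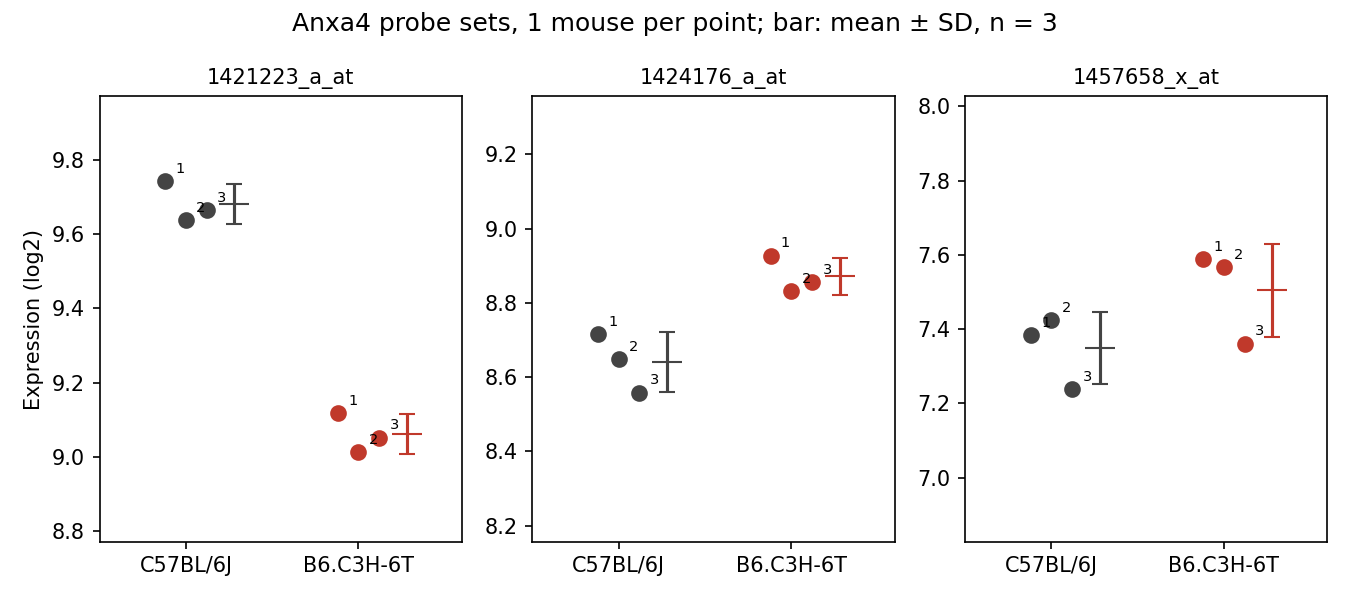
Log2 expression (vertical axis, the same span in each panel) of the 3 Anxa4 probe sets in 3 C57BL/6J mice (grey) and 3 B6.C3H-6T mice (red); each point is 1 mouse, labelled by replicate, and the bar is the mean ± SD. The means are 9.68 and 9.06 at 1421223_a_at, 8.64 and 8.87 at 1424176_a_at, and 7.35 and 7.50 at 1457658_x_at, where the strains overlap.

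Taken within each array, where a shift of the whole array cancels, 1421223_a_at moved against both other Anxa4 probe sets. Its log2 value minus that of 1424176_a_at was 1.03, 0.99 and 1.11 in the C57BL/6J mice and 0.19, 0.18 and 0.20 in the B6.C3H-6T mice. The congenic mice lay close together on this measure and below all C57BL/6J mice. The mean gap went from 1.04 ± 0.06 to 0.19 ± 0.01 (SD, n = 3 each), a change of -0.85. Against 1457658_x_at the gap was 2.36, 2.21 and 2.43 in C57BL/6J mice and 1.53, 1.45 and 1.69 in B6.C3H-6T, a change of -0.78, again with no overlap.

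The other pair of Anxa4 probe sets kept close to each other. The value of 1424176_a_at minus 1457658_x_at was 1.33, 1.22 and 1.32 in C57BL/6J mice and 1.34, 1.27 and 1.50 in B6.C3H-6T. These values overlapped, and the mean gap changed by 0.07, from 1.29 ± 0.06 to 1.37 ± 0.12. For scale, the median distance between the highest and lowest probe set difference was 0.12 over genes with at least 2 probe sets. A gap between probe sets shows unequal change of signal only. Its size does not order the levels of 2 transcripts, since probes differ in how well they bind. Whether the C3H sequence of Anxa4 differs under these probes was not tested, since neither probe nor C3H sequences were used.

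The direction of Anxa4 as a gene therefore depended on how its probe sets were summarised. The brightest probe set, which is 1421223_a_at, gave -0.62. The mean of the 3 probe sets per array gave -0.078, with array means from 8.49 to 8.61 in C57BL/6J mice and from 8.42 to 8.54 in B6.C3H-6T, which overlap. The median probe set, which is 1424176_a_at in every array, gave 0.23, and the dimmest gave 0.16.

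In the fit over the whole table, 1421223_a_at was the 1 annexin probe set called, meaning a limma adjusted p under 0.05 (0.0152). Over all probe sets, 0.0466% were called lower and 0.0111% higher. This call is what brought the gene forward, so nothing is read from it. The call also needed all 6 arrays. Leaving out the C57BL/6J mice in turn gave a limma adjusted p of 0.0689 (replicate 1), 0.0694 (replicate 2) and 0.113 (replicate 3). Leaving out the congenic mice in turn gave 0.0559, 0.0854 and 0.0714. The difference itself stayed between -0.65 and -0.59.

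Opposite probe sets within a gene were uncommon in this table. Of 9010 genes with at least 2 probe sets of their own, 51 (0.566%) had at least 1 lower and at least 1 higher at an unadjusted limma p under 0.05, and Anxa4 is one of them. The distance between the highest and lowest probe set difference was 0.85 for Anxa4, against a median of 0.12 over those genes. It was at least as wide in 14 genes, Anxa4 included, or 0.155% of them. Among the 2366 genes with 3 probe sets, as Anxa4 has, the median was 0.15. In 5 of these, Anxa4 included, it was at least as wide. Anxa4 was put forward because of this disagreement, so its place among these genes is a description.

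Of those 14 genes, 3 lie on chromosome 6, which holds 503 of the 8998 genes of the 9010 that the gene table lists. They are Bid, Fkbp14 and Anxa4, named after their values were seen. Anxa4 is counted here and its own distance sets the cut-off for the 14, so these counts are a description. Bid, a proapoptotic BCL2 family gene, had 3 probe sets from -1.63 to -0.13, all lower. Fkbp14, which encodes a prolyl isomerase of the endoplasmic reticulum, had 1 probe set lower (-0.45) and 1 higher (0.43). Among the 14, Fkbp14 and Anxa4 were the 2 that also count among the 51 with opposite probe sets, of which 5 lie on chromosome 6.

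**Figure D2:**
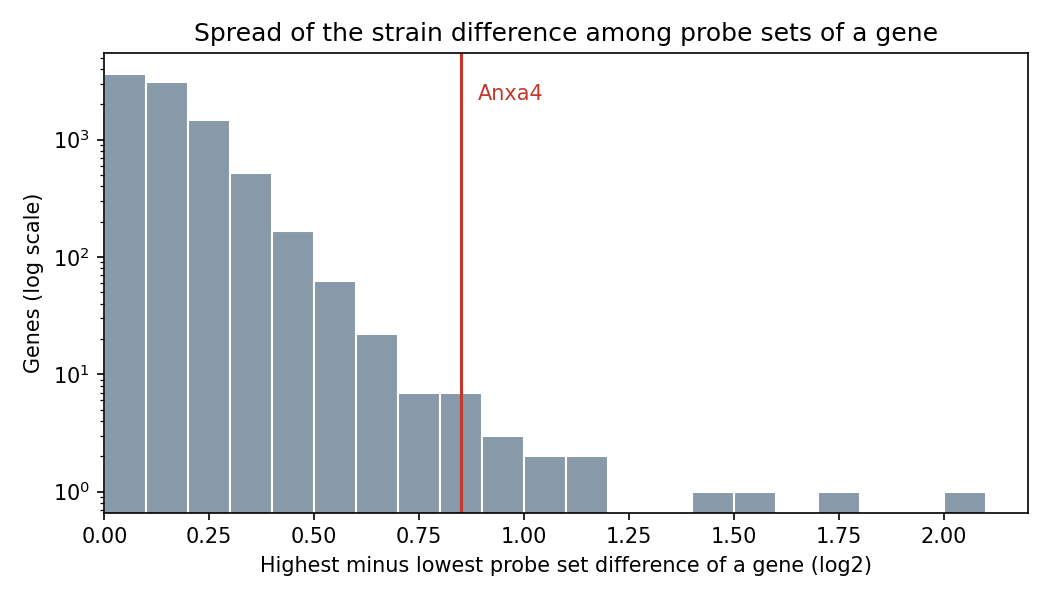
Number of genes (vertical axis, log scale) by the distance between the highest and lowest strain difference of their probe sets (horizontal axis, log2, bins of 0.1), over 9010 genes with at least 2 probe sets of their own. The red line marks Anxa4 at 0.85, far to the right of the median of 0.12.

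Genes with a called probe set and other probe sets of their own numbered 11. In 9 of them at least 1 other probe set moved the same way at an unadjusted p under 0.05, as in Snhg1, Tgoln1 and Atg7. The exceptions were Anxa4 and Mid1. These genes were named after their values were seen. Both other probe sets of Mid1, like both of Anxa4, had the opposite sign to the called one, and the spread of Mid1 was the widest of the 9010 genes at 2.06 (-1.90 to 0.16). In Anxa4 alone of the 11 did an opposite one have an unadjusted p under 0.05. Anxa4 was put forward because of this disagreement, so this restates its choice.

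No other annexin had a difference as large as the largest of Anxa4. None of their 15 probe sets was called in limma (smallest adjusted p = 0.385), and 2 had an unadjusted p under 0.05, 1 higher and 1 lower, where 10.6% of all probe sets did. Their strains did not overlap at 2 of 15 probe sets, and at 4 of 18 with Anxa4 included, against 16.0% of all probe sets. Their differences ran from -0.21 to 0.18 with a median of -0.00, beside a median of 0.02 over all probe sets. Their standard errors ran from 0.06 to 0.12, and 4 of the 15 had a mean below the table's median of 6.10.

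**Figure D3:**
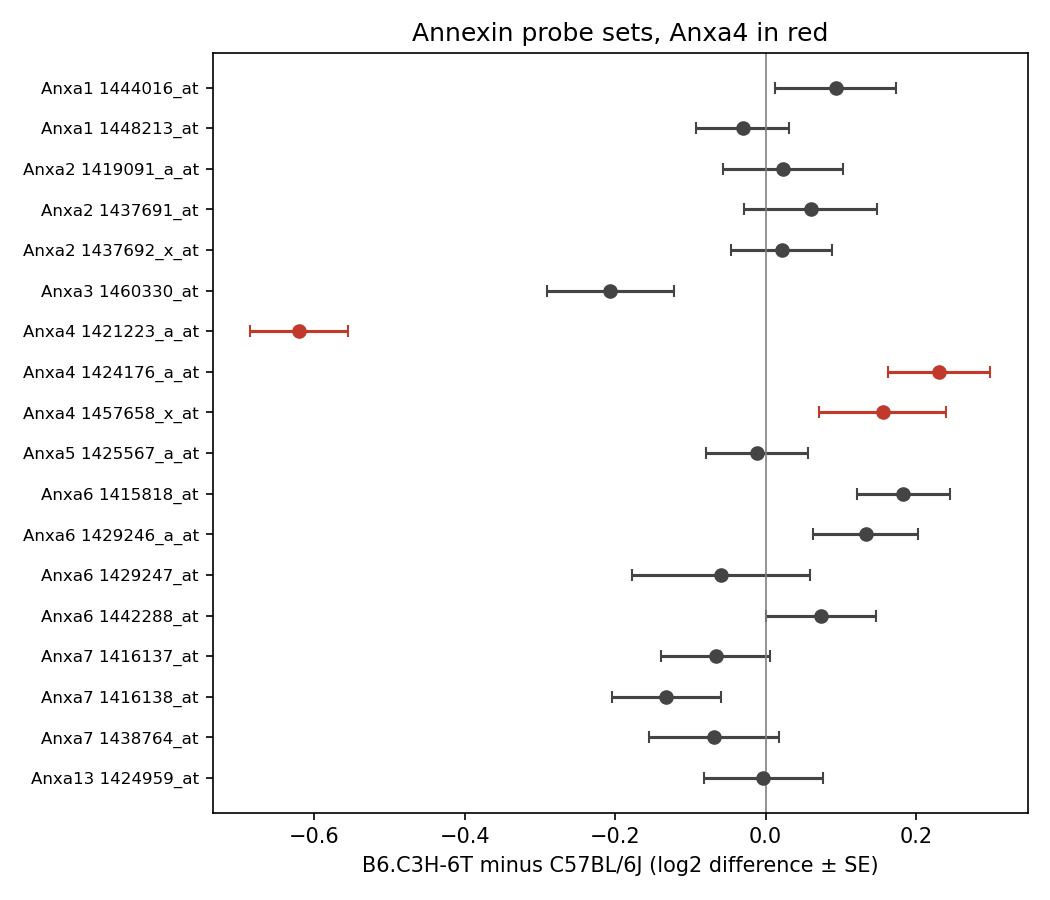
Strain difference (horizontal axis, B6.C3H-6T minus C57BL/6J, log2) with its SE for each of the 18 annexin probe sets, Anxa4 in red. Anxa4 spans -0.62 to 0.23, while the 15 probe sets of the other annexins lie between -0.21 and 0.18.

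Among the annexins that bind S100 partners, Anxa1 and Anxa2 stayed near 0. Anxa1, whose protein restrains phospholipase A2 and leukocyte entry, had a difference of -0.03 ± 0.06 at 1448213_at, from 7.06 ± 0.05 to 7.02 ± 0.03 (SD, n = 3 each). Its other probe set, 1444016_at, was dim (4.42 on average) and differed by 0.09 ± 0.08. Anxa2, which forms a complex with S100A10 at the cell membrane, differed by 0.02 ± 0.08 at 1419091_a_at, where C57BL/6J mice read 8.61 to 8.75 and B6.C3H-6T mice 8.59 to 8.83. Its remaining probe sets, 1437691_at and 1437692_x_at, lay below the table's median at 3.91 and 5.21 and differed by 0.06 ± 0.09 and 0.02 ± 0.07. The 3 Anxa2 probe sets were thus within 0.04 of each other in their differences, less than the SE of each.

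Anxa3 and Anxa5 have short tails, and each was read by 1 probe set. Anxa3 at 1460330_at read 6.97, 6.78 and 6.84 in C57BL/6J mice and 6.67, 6.52 and 6.78 in B6.C3H-6T. The strains did not overlap, though congenic replicate 3 and C57BL/6J replicate 2 both rounded to 6.78. The difference was -0.21 ± 0.08 and did not pass (limma adjusted p = 0.450). Anxa5, whose protein binds phosphatidylserine and serves as a probe of dying cells, was bright and level, at 10.47 ± 0.03 in C57BL/6J mice and 10.46 ± 0.09 in B6.C3H-6T (difference -0.01 ± 0.07).

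Anxa6, which has a duplicated core and takes part in endocytic and cholesterol traffic, was read by 4 probe sets, 3 higher and 1 lower. The brightest, 1415818_at, read 10.22, 10.13 and 10.12 in C57BL/6J mice and 10.35, 10.34 and 10.33 in B6.C3H-6T. The congenic mice were all above the C57BL/6J mice and close together, and the difference was 0.18 ± 0.06 (limma adjusted p = 0.385, which did not pass). The probe set 1429246_a_at differed by 0.13 ± 0.07 and 1442288_at by 0.07 ± 0.07. The fourth, 1429247_at, varied most between C57BL/6J mice (5.95 to 6.38) and differed by -0.06 ± 0.12. The differences of these 4 spanned 0.24.

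Anxa7, the membrane fusion annexin also called synexin, was lower at all 3 of its probe sets, and none passed. The differences were -0.07 ± 0.07 at 1416137_at, -0.13 ± 0.07 at 1416138_at and -0.07 ± 0.09 at 1438764_at, a span of 0.07. At 1416138_at, the brightest, the means were 9.91 ± 0.08 and 9.77 ± 0.08 (SD, n = 3 each), and the strains overlapped. Anxa13, an annexin of intestinal and kidney epithelium, was below the table's median at 5.46 and differed by -0.00 ± 0.08.

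No gene beside Anxa4 had a difference as large as that of 1421223_a_at. The 5 measured genes on each side in RefSeq order are 1600020E01Rik, Asprv1, Mxd1, Snrnp27 and Gmcl1 on one side and 2610306M01Rik, Aak1, Nfu1, Gfpt1 and D6Ertd527e on the other. Represented by their brightest probe sets, 6 were higher and 4 lower, from -0.11 (Snrnp27, a splicing factor gene) to 0.20 (2610306M01Rik), with a median of 0.03. None passed in limma (smallest adjusted p = 0.430), and 1 of 10 had an unadjusted p under 0.05, where 12.1% of all genes did. Over all 30 probe sets of these genes the differences ran from -0.25 to 0.20, 0 passed in limma and 3 of 30 had an unadjusted p under 0.05, close to the 10.6% of all probe sets.

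The transcript 2610306M01Rik, next to Anxa4, read 6.75 ± 0.05 in C57BL/6J mice and 6.94 ± 0.12 in B6.C3H-6T (difference 0.20 ± 0.08), without overlap. Gmcl1, the neighbour on the other side, differed by -0.01 ± 0.09 at its brightest probe set. A dim one of its 6, 1438887_a_at (4.93), was the lowest of the 30 at -0.25 ± 0.07 (adjusted p = 0.307). Aak1, an endocytic kinase gene, had 7 probe sets from 0.00 to 0.16, and the glucosamine synthesis gene Gfpt1 differed by -0.01 ± 0.11.

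**Figure D4:**
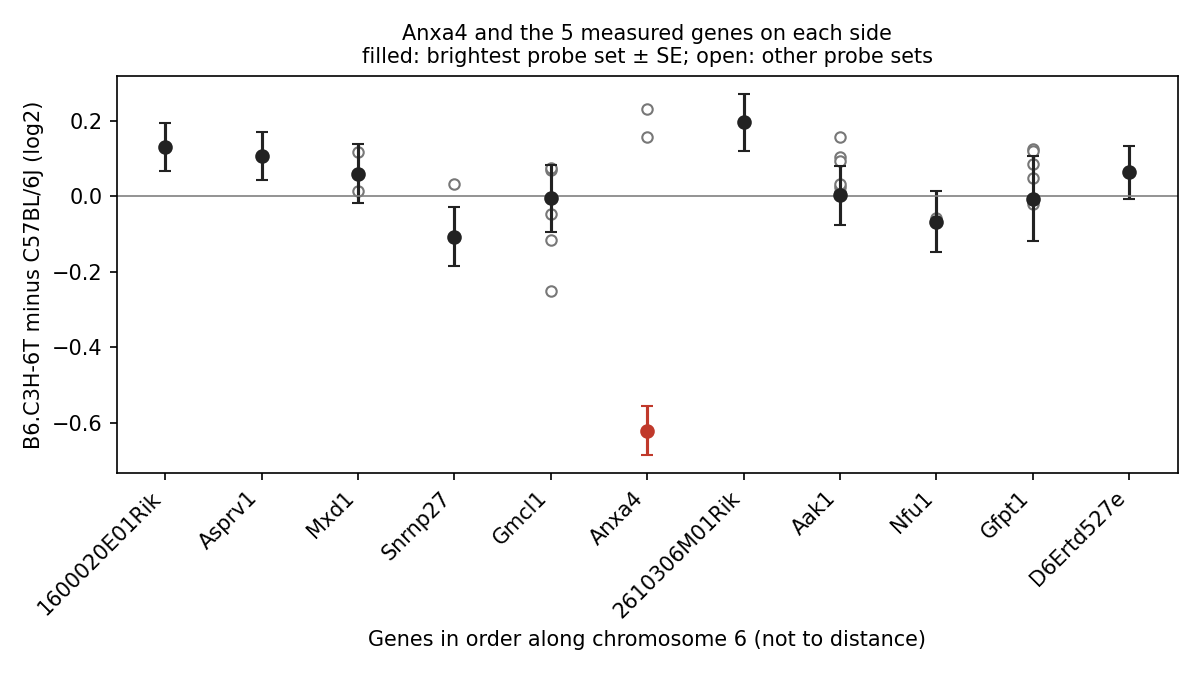
Strain difference (vertical axis, B6.C3H-6T minus C57BL/6J, log2) of Anxa4 (red) and the 5 measured genes on each side along chromosome 6, in order and not to distance; filled points are the brightest probe set ± SE and open points the other probe sets. Only the brightest Anxa4 probe set, at -0.62, lies outside the range from -0.25 to 0.23 that holds all other points.

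The profiles most like each Anxa4 probe set were found by the root mean square difference over the 6 arrays after each probe set's own mean was subtracted. For 1421223_a_at the nearest genes were Snhg1 (0.06, with a difference of -0.61 ± 0.08), Tpra1 (0.06, -0.61 ± 0.06) and Pdilt (0.07, -0.57 ± 0.08), of which Tpra1 also lies on chromosome 6. For 1424176_a_at they were Mbnl1 (0.01), Ell2 (0.02) and Unc45a (0.02), and for 1457658_x_at Pitx3 (0.01), Cnn3 (0.02) and Rab11fip3 (0.02). Between 1424176_a_at and 1457658_x_at themselves the measure was 0.08, while from 1421223_a_at it was 0.43 and 0.40. These rest on 6 arrays and are a description.

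The binding partners and receptors of annexins were measured for 12 of 14 genes, 5 higher and 7 lower, with a median of -0.04 beside 0.02 over all genes. None was called in limma, and 4 had an unadjusted p under 0.05, where 12.1% of all genes did. They were the scaffold gene Ahnak (-0.25 ± 0.08), the membrane repair gene Dysf (0.21 ± 0.06), the cytosolic phospholipase A2 gene Pla2g4a (-0.36 ± 0.12) and Fpr2, a formyl peptide receptor gene through which annexin A1 signals (-0.26 ± 0.11). Their limma adjusted p ran from 0.351 to 0.459. Ahnak has 4 probe sets and is among the 51 genes with opposite ones, so its direction here is that of its brightest.

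Other calcium-dependent lipid binders split evenly, with 9 of 18 higher and 9 lower and a median of 0.00. The copine gene Cpne3 (0.16 ± 0.07) was the 1 of 18 with an unadjusted p under 0.05, a smaller share than the 12.1% of all genes, and Cpne5 (0.16 ± 0.07), Syt7 (0.14 ± 0.07) and Prkcb (-0.14 ± 0.07) came next. Of 7 measured genes of chloride transport, secretion and calcium release, 5 were higher and 2 lower, with a median of 0.06. The scramblase gene Ano6 differed by -0.21 ± 0.08, the 1 of 7 with an unadjusted p under 0.05, and the chloride channel gene Ano1 differed by 0.12 ± 0.09, Itpr2 by 0.10 ± 0.07 and Ano10 by 0.08 ± 0.08. The annexins outside the members, Anxa8 (0.09 ± 0.07), Anxa9 (-0.11 ± 0.11) and Anxa10 (0.11 ± 0.09), had no unadjusted p under 0.05. None of these genes was called.

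Hepatocyte markers were bright, with list means from 13.39 to 13.48 in C57BL/6J mice and from 13.50 to 13.54 in congenic mice. Over all 18193 genes 10203 were higher and 7990 lower, and 12.1% had an unadjusted p under 0.05. Of 9 hepatocyte markers measured, 8 were higher, 2 at an unadjusted p under 0.05 and 0 called in limma, with Tat, a tyrosine catabolic enzyme, at 0.42 ± 0.09 and the urea cycle gene Cps1 at 0.26 ± 0.06. Since the tissue was bulk liver, fewer cells of a type and less RNA per cell cannot be told apart. Markers of Kupffer cells and macrophages were lower in 10 of 10 cases, 9 at an unadjusted p under 0.05 (12.1% of all genes) and 0 called in limma, with Timd4 (-0.47 ± 0.11), C1qb (-0.27 ± 0.07), Cd68 (-0.28 ± 0.09) and Vsig4 (-0.24 ± 0.08) first. Their mean per array was 9.45 to 9.72 in C57BL/6J mice and 9.12 to 9.34 in B6.C3H-6T, without overlap. The differences of Anxa3, Fpr2, Pla2g4a, Ahnak and the 3 Anxa7 probe sets lay in the same direction as this list. Of the Anxa4 probe sets, 1421223_a_at (-0.62) lay in that direction, and 1424176_a_at (0.23) and 1457658_x_at (0.16) lay in the opposite one. Dysf (0.21) and the brightest Anxa6 probe set (0.18) were also opposite, and Anxa1 was near 0 at its brighter probe set (-0.03). These directions are a description, and the part of the list in them was not tested.

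Markers of bile duct epithelium were measured for 11 of 14 genes and all 11 were higher, with a median of 0.06 and 0 at an unadjusted p under 0.05. Prom1 (0.61 ± 0.27), Krt19 (0.17 ± 0.08), Sctr (0.18 ± 0.09) and Sox9 (0.14 ± 0.08) had the smallest p, and 6 of the 11 lay below the table's median. The list mean was 6.06 to 6.16 in C57BL/6J mice and 6.20 to 6.26 in B6.C3H-6T, without overlap. The list means of hepatocyte, Kupffer cell and exocrine pancreas markers and of the annexin partners did not overlap either. Taken singly, 0 of the 11 bile duct markers were without overlap, beside 3243 of all 18193 genes. Prom1, with the largest difference of the 11, had an SD of 0.64 in C57BL/6J mice. The bile duct list mean moved in the direction of 1424176_a_at and 1457658_x_at and against that of 1421223_a_at. Its part in the Anxa4 values was not tested. Of mesothelial markers 6 of 6 were higher with a median of 0.11, and of exocrine pancreas markers 3 of 4 with a median of 0.09. Of these, 3 of the 6 mesothelial and 2 of the 4 pancreas markers lay below the table's median. Endothelial (1 of 8 higher), stellate (4 of 8), neutrophil (3 of 5), lymphocyte (2 of 6) and red blood cell markers (1 of 3) had medians from -0.07 to 0.11. An unadjusted p under 0.05 was found for 1 neutrophil and 1 red blood cell marker and for 0 in the mesothelial, pancreas, endothelial, stellate and lymphocyte lists. None of the marker genes was called in limma.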

How the data were processed

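The authors deposited 1 log2 value per probe set and array. The submitters' processing notes name RMA, which summarises the probes of a set, and the affy package, without versions. Of 45101 probe sets, 64 controls were left out. Names came from the platform annotation, updated through the gene identifier (RefSeq, GRCm38.p6): 34945 probe sets had 1 gene, 932 several and 9160 none, giving 18193 genes, 18145 of them in the gene table. Promoter sequences are RefSeq's.

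The strains were compared across all probe sets with limma 3.58.1 in R 4.3.3 (lmFit, eBayes, no covariate, no filter). Adjustment was by Benjamini-Hochberg over 45037 probe sets, with 0.05 as the threshold. The fit was tested on simulated data with planted differences that were all larger than those of Anxa4. Recovery of differences the size of those of Anxa4 was not tested. A gene in a list or beside Anxa4 was represented by its probe set of highest mean. Named were all members, 5 genes on each side of Anxa4, the 3 nearest profiles per Anxa4 probe set and up to 4 genes of smallest p per list. The members and lists were chosen with earlier results of these data known. P-values measure the spread between 3 mice per strain, whose number limits the precision. Alternatives were each array left out, a brightness filter, median centring, quantile normalization, unmoderated and trended variances, no _x_at or _s_at probe sets, and, added after seeing the data, other summaries of Anxa4.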

Additional observations from a re-analysis of the deposited data

How the results depend on the processing

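Over the leave-one-out fits and the other settings, the Anxa4 differences ran from -0.65 to -0.59 at 1421223_a_at, 0.19 to 0.27 at 1424176_a_at and 0.10 to 0.23 at 1457658_x_at. The brightness filter and both variance settings leave a difference as it is by construction, and median centring leaves a gap within an array as it is. Calls changed. Over the table, 26 probe sets became 11 to 17 without 1 array (15, 13 and 11 without C57BL/6J replicates 1 to 3, 17, 16 and 16 without congenic replicates 1 to 3), and the annexin count of 1 became 0 in each of these 6 fits. Without moderated variances both counts were 0 in limma, where 3841 probe sets had an unadjusted p under 0.05. The 51 genes with opposite probe sets became 18 to 86 without 1 array (31, 86 and 29, then 28, 18 and 63, in the same order) and 18 among the brighter probe sets, where fewer genes were tested; Anxa4 was among them each time. Anxa4 as a gene, at -0.62 by its brightest probe set, was -0.078 by the mean, 0.23 by the median and 0.16 by the dimmest, settings added after seeing the data. No paired analysis was made, since the labels give each array a Ped number of its own and name no pairs.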
